A study of Rattus norvegicus with 11 samples.

Results

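Arc (ENSRNOG00000043465) and Dusp1 (ENSRNOG00000003977), a pair of genes whose transcripts are induced by neuronal activity, were examined in the medial prefrontal cortex (mPFC) of the rat. Both were taken by Ensembl identifier, and both were present, so that the account covers 2 of the 15607 genes detected. RNA-seq had been performed on mPFC punches from Sprague-Dawley rats that were 2 to 3 months old, and the processed data covered 4 males, 4 females in diestrus and 3 females in proestrus, each library coming from a separate animal. Diestrus is the low-estrogen stage of the estrous cycle, and proestrus is the stage in which estrogen peaks. According to the study's methods, diestrus females were collected early in the day and proestrus females in the early afternoon, with males taken on the same days, so stage and hour of collection cannot be told apart. Animals were housed in pairs and females were collected as pairs, and the labels do not say which libraries came from cage mates. The study kept males and females in separate rooms, took daily vaginal smears from the females and gives no hour of collection for the males. Sex therefore cannot be told apart from room or smearing in the comparisons with males. No animal carried a transgene or received a drug. The libraries held between 15851470 and 24589880 reads on genes, and expression is given as DESeq2-normalized counts, which are reads divided by 1 size factor per library.

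Arc is an immediate early gene: synaptic activity switches on its transcription within minutes through calcium and MAP kinase signaling, and its mRNA travels into dendrites, where it is translated close to active synapses. The Arc protein promotes the internalization of AMPA-type glutamate receptors and takes part in long-lasting synaptic plasticity. Dusp1, also known as MKP-1, is a nuclear dual-specificity phosphatase that is induced by the same kinases and by stress or glucocorticoids, and it dephosphorylates and inactivates ERK, p38 and JNK. The former is thus an effector at the synapse and the latter a feedback inhibitor of the pathway that induces it.

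The promoter of Dusp1 is shown because its letters hold sites of the kind bound by CREB, the factor that links cyclic AMP and calcium signals to immediate early genes. In RefSeq (GRCr8) the 250 bases before the transcription start lie on the plus strand at chr10:17184603-17184852. Capitals mark the cyclic AMP response element (CRE, TGACGTCA), a further copy of its core (TGACG) and an E-box (CACGTG).
Dusp1 promoter: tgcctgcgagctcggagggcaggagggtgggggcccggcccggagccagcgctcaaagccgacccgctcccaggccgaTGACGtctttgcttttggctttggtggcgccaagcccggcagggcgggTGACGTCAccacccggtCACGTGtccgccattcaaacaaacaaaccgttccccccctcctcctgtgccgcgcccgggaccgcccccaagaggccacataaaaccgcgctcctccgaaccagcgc
The CRE spans the bases from 124 to 117 before the start, and the additional core lies from 172 to 168 before it. The E-box spans 107 to 102 bases before the start. Searched on both strands, TGACGTCA occurred in 531 of 33469 rat promoter windows of the same length (1.59%), TGACG, which is also counted inside every CRE, in 18.2%, and CACGTG in 5.59%. Of the 6 activity-induced genes with an entry in that table (Dusp1, Egr2, Nptx2, Sik1, Ptgs2 and Pim1), 4 held the core (Dusp1, Egr2, Nptx2 and Sik1) and 1, Dusp1, held the whole CRE. These matches describe the letters of the windows and not binding in the mPFC. No promoter entry was at hand for Arc, so its promoter was not searched.

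Arc was among the genes with the most reads, ranking 342 of 15607 by mean normalized count, which is not corrected for transcript length. The 4 males had 11239, 10864, 10684 and 9955 normalized counts of Arc (replicates 2, 3, 4 and 5). In diestrus the counts were 10291, 8442, 7236 and 2300 (replicates 2, 3, 4 and 5). In proestrus they were 7685, 3977 and 3898 (replicates 1, 3 and 5). All proestrus females thus lay below all males, whereas 1 diestrus female reached the range of the males and another had the lowest value of all libraries. Mean Arc was 10686 ± 539 in males (SD, n = 4), 7067 ± 3417 in diestrus (n = 4) and 5187 ± 2164 in proestrus (n = 3).

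Dusp1, which ranked 2056 by mean normalized count, followed the same order of groups with smaller differences. Males had 2441, 2226, 2145 and 2412 normalized counts of Dusp1 (replicates 2, 3, 4 and 5). Diestrus females had 2623, 1904, 1713 and 864 (replicates 2, 3, 4 and 5), and proestrus females had 1969, 1229 and 1418 (replicates 1, 3 and 5). As for Arc, each proestrus female was below each male, but here the diestrus female with the highest value exceeded all males. Mean Dusp1 was 2306 ± 143 in males, 1776 ± 723 in diestrus and 1539 ± 385 in proestrus (SD). In both genes the means ran from males through diestrus to proestrus, and no neighbours in that order differed beyond the spread between animals at the 5% false discovery rate (FDR).

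**Figure D1:**
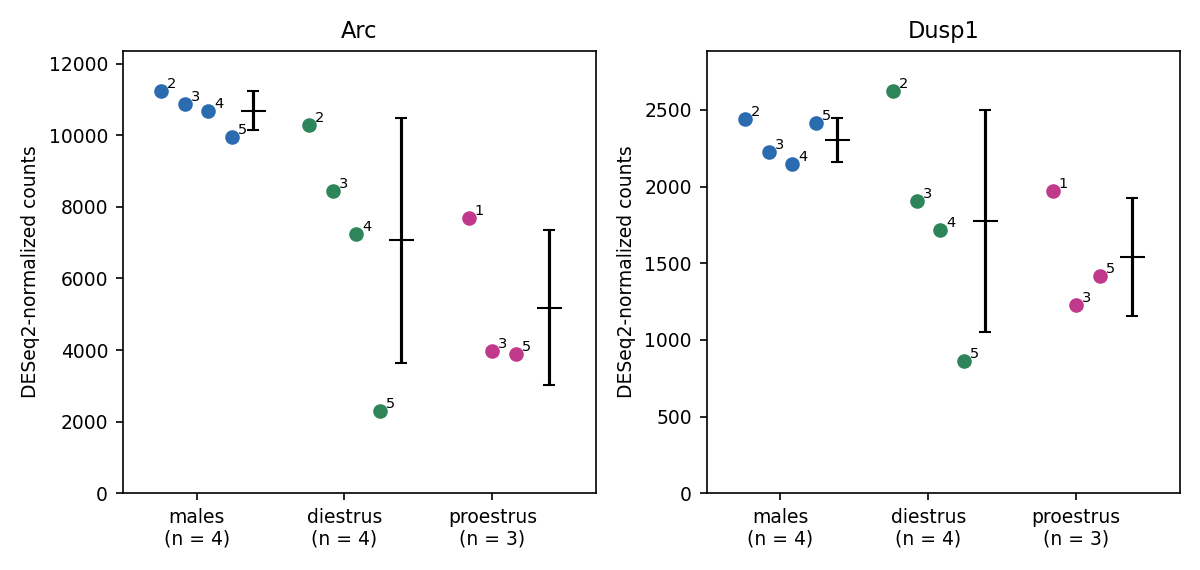
DESeq2-normalized counts of Arc (left) and Dusp1 (right) in each library by group, with points numbered by replicate and black bars giving the mean ± SD. Males span 9955 to 11239 for Arc and 2145 to 2441 for Dusp1, while diestrus females span 2300 to 10291 and 864 to 2623.

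The counting error was small beside these differences. The square root of the read number, as a share of that number, was 0.858% to 1.84% for Arc and 1.84% to 3.01% for Dusp1 over the 11 libraries. Diestrus replicate 5, which had the lowest normalized counts of both genes, was the most deeply sequenced library, and its raw counts were also the lowest of all, with 2943 reads of Arc and 1106 reads of Dusp1.

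Both genes varied less among males than among females of either stage. On the log2(normalized count + 1) scale, the SD of Arc was 0.074 among males, 0.97 among diestrus females and 0.56 among proestrus females. Among males, 87.8% of the 11731 genes averaging 50 or more normalized counts had a larger SD than Arc, whereas in diestrus 15 genes (0.128%) and in proestrus 96 genes (0.818%) did. The highest Arc value was 1.13 times the lowest in males, 4.47 times in diestrus and 1.97 times in proestrus. The SD of Dusp1 was 0.090 in males, 0.67 in diestrus and 0.35 in proestrus, with 80.7%, 0.494% and 3.55% of genes showing a larger SD in the respective group. For comparison, the median SD over these genes was 0.15 in males, 0.16 in diestrus and 0.092 in proestrus. The study removed 1 proestrus library as an outlier and names none in the other groups, so the spread in proestrus is that of a trimmed group. The SD of Arc in diestrus was 13.2 times that in males, a ratio exceeded by 6 genes (0.0511%), and that of Dusp1 was 7.48 times, exceeded by 29 genes (0.247%). In proestrus the SD was 7.56 times that in males for Arc, exceeded by 24 genes (0.205%), and 3.87 times for Dusp1, exceeded by 136 genes (1.16%). Single animals carried much of this spread, as seen when 1 library was left out, an alternative chosen after seeing the data. Without diestrus replicate 5 the SD in diestrus was 0.25 for Arc and 0.32 for Dusp1, or 3.46 and 3.55 times that in males, with 18.8% and 9.79% of genes showing a larger SD, and the highest Arc value was 1.42 times the lowest. Without proestrus replicate 1 the SD of the remaining 2 proestrus libraries was 0.021 for Arc and 0.15 for Dusp1. In males Arc had an SD of 0.037 without replicate 5. The spread is a description of these few animals and was not tested.

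**Figure D2:**
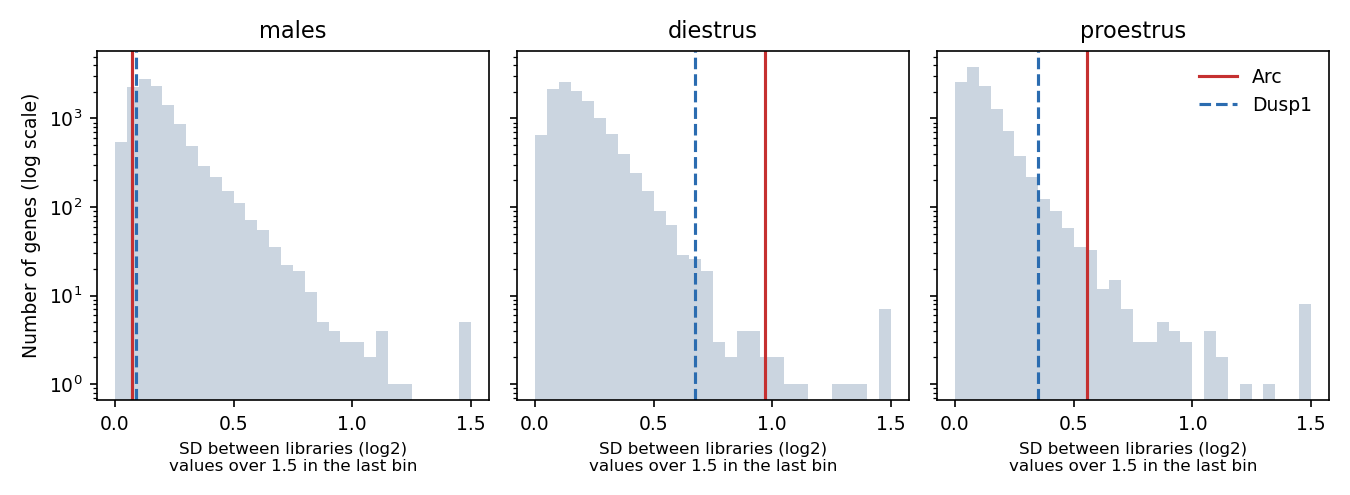
Histograms of the SD between libraries (log2 scale, horizontal) over 11731 genes (number of genes on a log axis) in males, diestrus and proestrus, with the SD of Arc (solid line) and Dusp1 (dashed line). The lines lie at 0.074 and 0.090 in males, and Arc moves to 0.97 in diestrus and 0.56 in proestrus. Without diestrus replicate 5 the SD of Arc in diestrus was 0.25.

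To assess the effect of the estrous cycle, proestrus was compared with diestrus. Mean Arc in proestrus was 0.734 times that in diestrus, and mean Dusp1 was 0.866 times. The values overlapped for both genes. The log2 difference was -0.33 for Arc (SE 0.39, 95% interval -1.16 to 0.51, limma adjusted p = 0.593) and -0.13 for Dusp1 (SE 0.27, interval -0.71 to 0.45, limma adjusted p = 0.771). Neither gene was among the 395 genes (2.53%) that passed the 5% FDR. Diestrus replicate 5 decided this outcome for Arc: without it the difference was -0.80 with a limma adjusted p of 0.0315, in a fit where 3.34% of genes were called lower in proestrus. For Dusp1 the value without that library was -0.44 (limma adjusted p = 0.0871). The sign for Dusp1 was not fixed either, being 0.094 without diestrus replicate 2 and 0.019 without proestrus replicate 3.

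Against males, proestrus gave the widest separation. Mean Arc in proestrus was 0.485 times that in males and mean Dusp1 was 0.667 times, with all 3 proestrus females below all 4 males for both genes, an arrangement shown in the same direction by 5.61% of all genes. The log2 difference was -1.12 for Arc (SE 0.39, interval -1.95 to -0.28, limma adjusted p = 0.382) and -0.61 for Dusp1 (SE 0.27, interval -1.19 to -0.03, limma adjusted p = 0.429). Neither was among the 13 genes (0.0833%) past the FDR, while 4.22% of genes were lower in proestrus at an unadjusted p under 0.05. This fit takes 1 spread from all 3 groups, so diestrus replicate 5 widened the SE although it belongs to neither group compared. Without that library the differences were unchanged, and the limma adjusted p was 0.0511 for Arc and 0.210 for Dusp1. With only proestrus and males in the fit it was 0.0635 and 0.185. The exact permutation test (two-sided) gave p = 0.0286 for each gene, the smallest value that 3 against 4 libraries allow.

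The comparison of diestrus with males gave smaller differences in the same direction. Mean Arc was 0.661 times and mean Dusp1 0.770 times the male mean, and for each gene 3 of the 4 diestrus females lay below the lowest male. The log2 difference was -0.79 for Arc (SE 0.36, interval -1.57 to -0.02, limma adjusted p = 0.507) and -0.48 for Dusp1 (SE 0.25, interval -1.02 to 0.06, limma adjusted p = 0.557). Neither gene was among the 20 genes (0.128%) past the FDR, and 5.86% of all genes were lower at an unadjusted p under 0.05. Exact permutation p-values (two-sided) were 0.0571 for Arc and 0.171 for Dusp1. A large share of these differences came from diestrus replicate 5, without which they were -0.32 and -0.17.

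Without regard to the cycle, 6 of the 7 females lay below the lowest male for Arc, and likewise 6 of 7 for Dusp1, the exception in both being diestrus replicate 2. Mean Arc was 6261 ± 2900 normalized counts in females, 0.586 times the male mean, and mean Dusp1 was 1675 ± 572, 0.726 times the male mean (SD, n = 7). The log2 difference was -0.93 for Arc (SE 0.33, interval -1.64 to -0.22, limma adjusted p = 0.710) and -0.54 for Dusp1 (SE 0.22, interval -1.02 to -0.05, limma adjusted p = 0.955). The FDR was passed by 21 genes (0.135%), which did not include either of them, and 2.77% of all genes were lower in females at an unadjusted limma p under 0.05. The share of all genes with most but not all females below the lowest male was not counted, here or for diestrus. Exact permutation p-values (two-sided) were 0.0303 for Arc and 0.0667 for Dusp1. These 3 comparisons with males share the same 4 male libraries and are not independent of each other. As the tissue was measured in bulk, fewer expressing cells and less RNA per cell cannot be told apart.

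**Figure D3:**
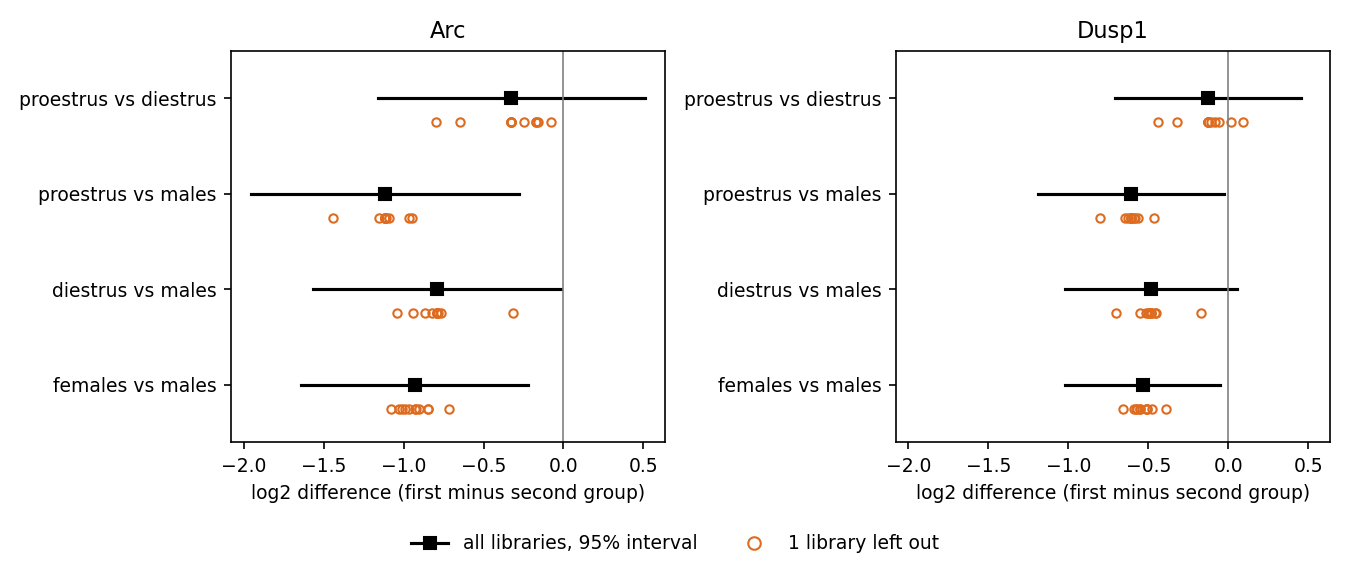
Log2 differences of Arc and Dusp1 in the 4 comparisons (first minus second group, horizontal), with squares and lines for the estimate and 95% interval from all 11 libraries and open circles for fits that leave out 1 library each. Without diestrus replicate 5 the difference between diestrus and males moves from -0.79 to -0.32 in Arc, and the circles for Dusp1 between proestrus and diestrus lie on both sides of 0.

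Arc differed more than Dusp1 in each comparison, and the ratio of the genes within each library, which does not depend on scaling by library size, was used to test this. Because transcript length enters the ratio, it is read only as a difference between groups. The log2 ratio of Arc to Dusp1 was 2.20, 2.29, 2.32 and 2.04 in males (replicates 2, 3, 4 and 5), 1.97, 2.15, 2.08 and 1.41 in diestrus (replicates 2, 3, 4 and 5), and 1.96, 1.69 and 1.46 in proestrus (replicates 1, 3 and 5). The lowest ratios belonged to diestrus replicate 5 and proestrus replicates 5 and 3, which were also the 3 libraries with the lowest Arc. The ratio was lower in proestrus than in males by 0.51 with no overlap (exact permutation p = 0.0286, adjusted over the 4 comparisons p = 0.0606). Females pooled differed from males by -0.39 (exact permutation p = 0.0303, adjusted p = 0.0606), diestrus from males by -0.31 (exact permutation p = 0.0857, adjusted p = 0.114) and proestrus from diestrus by -0.20 (exact permutation p = 0.429). None of the 4 differences passed the 5% threshold after adjustment. Single libraries weighed on the smaller ones: without diestrus replicate 5 the difference was -0.15 between diestrus and males and -0.36 between proestrus and diestrus, and the latter was -0.33 without proestrus replicate 1, -0.12 without diestrus replicate 3 and -0.073 without proestrus replicate 5.

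Over all animals, the pair moved together. Over the 11 libraries the log2 values of Arc and Dusp1 had a Pearson r of 0.972 (permutation p = 1e-05, the smallest that 100000 permutations can give, adjusted p = 2e-05) and a Spearman rho of 0.882 (permutation p = 0.000630). Within the 7 females alone, a subset chosen after seeing the data, r was 0.972 (exact permutation p = 0.000794) and rho was 0.929 (exact permutation p = 0.00675). With the group means removed, r was 0.965 (exact permutation within groups, p = 0.00839). Leaving out the 2 libraries farthest from the median of Arc, diestrus replicate 5 and proestrus replicate 5, r was 0.947 over 9 libraries (exact permutation p = 0.000896). The diestrus females held the same order in both genes, and in both the first proestrus replicate was above the other two, which swapped order between the genes. Within the narrow range of the males the order differed: replicate 5 was lowest for Arc and the second highest for Dusp1. With 3 or 4 libraries to a stage, the relation within a single stage was not tested.

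**Figure D4:**
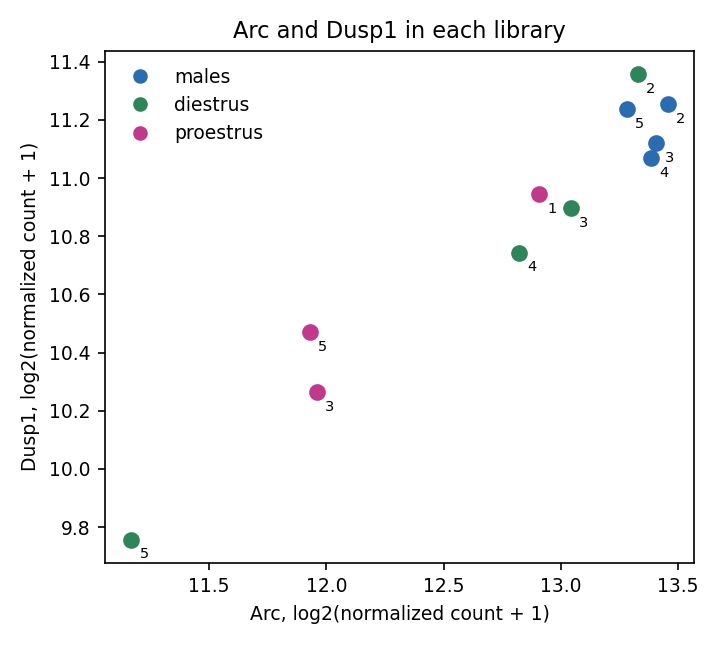
Arc (horizontal) against Dusp1 (vertical) in each of the 11 libraries, both as log2(normalized count + 1), with colors for the groups and replicate numbers beside the points. Males crowd at the upper right, diestrus replicate 5 lies alone at the lower left, and Pearson r is 0.972 over all libraries.

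Among the 11730 other genes averaging 50 or more, Dusp1 was the gene whose log2 values followed Arc most closely over the 11 libraries. The next was ENSRNOG00000047811 (r = 0.968), with 351 ± 11.5 normalized counts in males, 237 ± 102 in diestrus and 209 ± 65.1 in proestrus (SD). The gene closest to Dusp1 was ENSRNOG00000042838 (r = 0.972), with 3623 ± 353 in males, 2615 ± 1096 in diestrus and 2078 ± 439 in proestrus, followed by Arc. These coefficients share libraries and scaling and are given as a description.

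Other activity-induced genes were then considered. Of 25 such genes listed, 6 could be matched to a row by identifier: Egr2, a zinc-finger transcription factor, Nptx2, a secreted protein that clusters AMPA receptors, Sik1, a kinase induced by cyclic AMP, Pim1, a serine/threonine kinase, Ier3, an early response gene tied to cell survival, and Ptgs2, the inducible cyclooxygenase. The rest of the list had no identifier at hand and was not looked up, which does not mean that those genes were undetected. The counts and medians therefore describe these 6 genes and not activity-induced genes in general. None of the 6 passed the FDR in any of the 4 comparisons by limma. At an unadjusted limma p under 0.05, 5 of 6 were lower in proestrus than in males (4.22% of all genes), 4 of 6 in diestrus than in males (5.86%) and 4 of 6 in females than in males (2.77%). None was lower in proestrus than in diestrus (11.5% of all genes), and 1, Ptgs2, was higher (15.2% of all genes). The median log2 difference of the 6 genes was -0.53 between proestrus and males, -0.78 between diestrus and males, -0.54 between females and males and 0.04 between proestrus and diestrus, with medians over all genes of 0.0052, 0.0096, 0.011 and -0.014.

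Egr2 tracked the pair most closely of the 6. Its r with Arc was 0.887, rank 15 among 11730 genes, and with Dusp1 0.871, rank 14. Males had 1365, 1246, 1615 and 1451 normalized counts of Egr2, diestrus females 1110, 676, 853 and 483, and proestrus females 1011, 442 and 576, in the replicate order used above. All 7 females were below all 4 males, as in 0.737% of genes, and the log2 difference between females and males was -1.02 (limma adjusted p = 0.177). Pim1 showed the same separation, with 97.3 ± 15.0 normalized counts in males against 52.1 ± 6.34 in diestrus and 62.4 ± 11.4 in proestrus (SD), and a log2 difference of -0.78 between females and males (limma adjusted p = 0.0965). It followed Arc less closely, with an r of 0.510. Nptx2 had an r of 0.843 with Arc and Sik1 an r of 0.751, whereas Ier3 had 0.338 and Ptgs2 -0.22. Ptgs2 also departed from Arc in level, with a mean of 175 ± 8.93 in proestrus, 99.8 ± 37.1 in diestrus and 165 ± 76.3 in males.

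**Figure D5:**
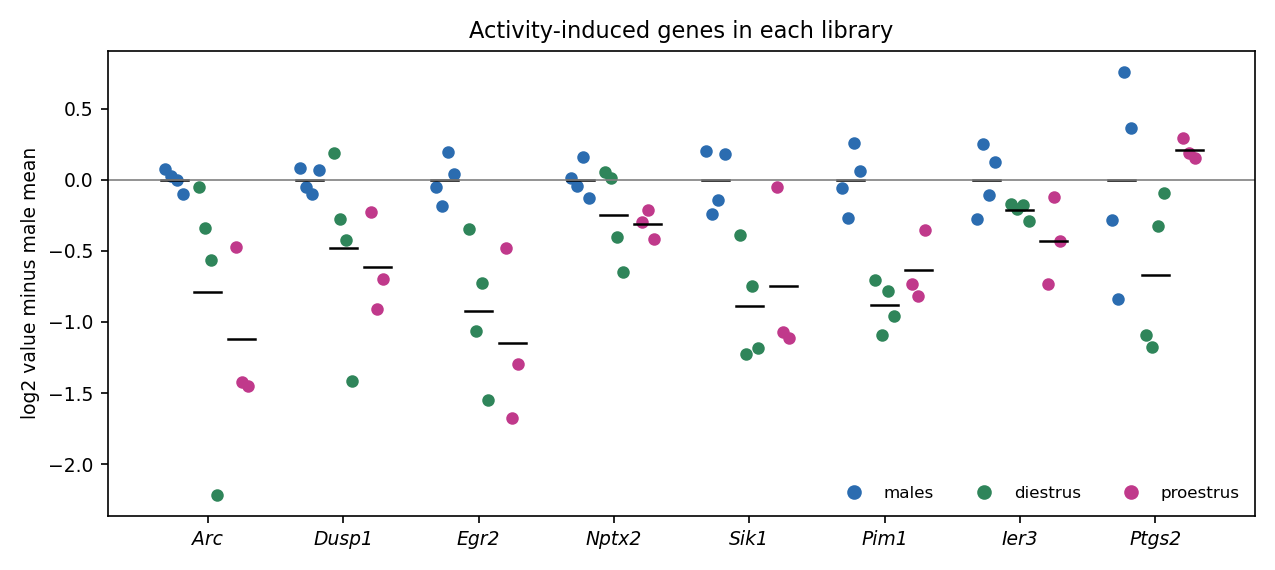
Log2 value of Arc, Dusp1 and 6 other activity-induced genes in each library minus the mean of the males (vertical, log2 units), with black bars for group means. All female points of Egr2 and Pim1 lie below all male points, 6 of 7 do so for Arc and Dusp1, and the proestrus points of Ptgs2 lie above 0.

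The substrates of Dusp1 belong to the MAP kinase family, of which 3 of 9 listed members were matched. None passed the FDR by limma in any comparison. The p38 kinase gene Mapk14 had 2061 ± 99.2 normalized counts in males, 2207 ± 186 in diestrus and 2173 ± 111 in proestrus (SD). Mapk10, which encodes the neuronal kinase JNK3, averaged 4152 ± 355 in males, 4257 ± 471 in diestrus and 4854 ± 686 in proestrus (SD). It had the most negative relation to Arc of the matched genes, with an r of -0.78, rank 11712 of 11730. Mapk7, which encodes ERK5, was low, with group means of 31.7 to 40.9. The 11 other dual-specificity phosphatases and 8 postsynaptic partners of Arc on the lists were not matched and were not analysed here.

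Cell type markers were compared between the groups because Arc and Dusp1 are expressed in only some cells of the cortex. All 12 markers listed were detected. The summed counts of 5 neuronal markers were 8942 to 9375 in males, 9007 to 10007 in diestrus and 9099 to 10400 in proestrus, ranges that overlapped. Gad1 and Sst, genes of inhibitory interneurons, made up most of that sum, and none of the 5 is specific to excitatory neurons. The sum is thus no measure of neurons as a whole. Of the 5 markers, 3 were higher in proestrus than in diestrus at an unadjusted limma p under 0.05 (15.2% of all genes), without passing the FDR. Gabra2 averaged 343 ± 42.5 in proestrus and 153 ± 59.5 in diestrus (SD, limma adjusted p = 0.0566), Gabra4 516 ± 17.7 and 212 ± 75.5 (limma adjusted p = 0.0646) and Nos1 371 ± 42.5 and 275 ± 79.2 (limma adjusted p = 0.161). In males Gabra2 averaged 242 ± 98.6, Gabra4 339 ± 178 and Nos1 344 ± 47.6. Their means were thus lower in diestrus than in males, the direction of Arc and Dusp1, and 1 of them, Gabra2 (log2 difference -0.65, limma adjusted p = 0.507), had an unadjusted limma p under 0.05 (5.86% of all genes). The median log2 difference of the 5 neuronal markers between diestrus and males was -0.36. Sst averaged 3973 ± 343 in proestrus and 4773 ± 1095 in diestrus (limma adjusted p = 0.299), the same order as the means of Arc and Dusp1, whereas the other 4 neuronal markers had the opposite order between these stages, and the part of these markers in the values of the pair was not tested. The oligodendrocyte marker Mog was 613 to 915 in males, 838 to 1381 in diestrus and 792 to 916 in proestrus, and did not pass the FDR in any comparison by limma. The erythroid gene Alas2 was lower in females, with 71.4 ± 24.6 normalized counts in males, 20.5 ± 5.72 in diestrus and 17.1 ± 6.37 in proestrus. Its log2 difference between females and males was -1.85 (limma adjusted p = 0.0120), a call that was lost without males replicate 3 (limma adjusted p = 0.0538) or males replicate 5 (limma adjusted p = 0.0968). The summed microglia and leukocyte markers were 717 to 796 in males, 705 to 957 in diestrus and 671 to 806 in proestrus. The astrocyte marker S100b was 15383 to 17906 in males, 14947 to 20854 in diestrus and 13198 to 15688 in proestrus, and Pdgfra, of oligodendrocyte precursors, was 807 to 1010, 717 to 882 and 895 to 967. At an unadjusted limma p under 0.05, Mog was also higher in females than in males (log2 difference 0.38, 2.06% of all genes) and in diestrus than in males (0.52, 3.76%), and Pdgfra was lower in diestrus than in males (-0.25, 5.86%). In proestrus against diestrus, S100b (-0.28) and the microglial marker Aif1 (-0.32) were lower at that threshold (11.5% of all genes) and Pdgfra (0.25) was higher (15.2%). None of these markers other than Alas2 passed the FDR, and the part of any of them in the differences of Arc and Dusp1 was not tested.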

How the data were processed

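According to the study, poly(A) RNA from mPFC punches was made into unstranded libraries, and reads were trimmed (Trimmomatic 0.32), aligned to Rnor_5.0 (TopHat2 2.0.11, Bowtie2 2.1.0) and counted per gene (HTSeq 0.6.1p1, Ensembl release 76). The authors deposited signal tables of DESeq2-normalized (DESeq2 1.4.5) and edgeR-normalized (edgeR 3.6.7) counts. In the DESeq2 table, 100% of values were whole reads times 1 step per library (tolerance 0.01 reads), so reads were recovered, and the depth was 15851470 to 24589880 reads on genes per library. The 11 factors of the edgeR table (0.956 to 1.07) did not follow the samples, and that table served as an alternative only.

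Log2(value + 1) was fitted with limma 3.58.1 (R 4.3.3, trended prior) over 15607 genes, all 3 groups in one fit and sex alone in another, with Benjamini-Hochberg adjustment over all genes and a two-sided 5% FDR. The fit was also run on simulated counts with known changes, and the outcome is not given here. Ratios and correlations were tested by permutation (Python 3.11.15, scipy 1.17.1). Alternatives were a pseudocount of 5, a mean of at least 50, TMM scaling, edgeR 4.0.16 and DESeq2 1.42.0 on recovered reads, only the groups compared, a replicate block and each library left out. Members and gene lists were chosen with earlier results of these data known, and listed genes were matched by identifiers from annotation rows of the study, 21 of 65 in all. The named genes were the pair, the matched listed genes and, for each of the pair, the 2 genes of highest r. Some listed genes are not reported here. Promoters came from RefSeq (GRCr8). A proestrus library that the study removed as an outlier was not analysed here. P-values cover the spread between these animals only.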

Additional observations from a re-analysis of the deposited data

How the results depend on the processing

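Of 158 group differences of Arc and Dusp1 under the alternatives, 149 kept their direction and their side of the threshold, 7 passed it and 2 changed sign. Many of these alternatives could not change the difference itself, such as the filter on the mean or leaving out a library of a group not compared. The tally is therefore no measure of robustness. The sign changes were those of Dusp1 between proestrus and diestrus, 0.094 without diestrus replicate 2 and 0.019 without proestrus replicate 3. In the edgeR-normalized table Arc passed the FDR against males in proestrus (-1.19, limma adjusted p = 1.27e-06), diestrus (-0.84, adjusted p = 0.00162) and females (-0.99, adjusted p = 0.0147). There the limma fit had 125792 degrees of freedom in the comparisons by stage and 43.1 in that by sex, against 13.6 and 13.5 in the DESeq2 table, so a gene's own spread weighed little. Exact permutation, with no adjustment over genes, gave p = 0.0286 between proestrus and males for Arc (-1.12) and Dusp1 (-0.61), and p = 0.0303 between females and males for Arc (-0.93). With 1 library left out, Arc ranged from -0.80 to -0.079 between proestrus and diestrus, -1.44 to -0.95 between proestrus and males, -1.04 to -0.32 between diestrus and males and -1.08 to -0.72 between females and males, and Dusp1 from -0.44 to 0.094, -0.80 to -0.46, -0.70 to -0.17 and -0.66 to -0.39.

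The number of genes past the FDR depended on the setting; the cause was not tested. Between proestrus and diestrus it was 395, against 1076 by DESeq2, 817 with only those groups and 0 to 1774 with 1 library left out, each of the 11 libraries moving it over 1.5 times; at 0, without proestrus replicate 1 or 3, 2766 and 2960 genes had an unadjusted limma p under 0.05. Between proestrus and males it was 13, against 118 by DESeq2, 106 in the edgeR-normalized table, 23 with only those groups and 2 to 26 with 1 library left out. Between diestrus and males it was 20, against 117 by DESeq2, 108 in the edgeR-normalized table, 6 with a mean of at least 50 and 1 to 88 with 1 library left out. Between females and males it was 21, against 77 by DESeq2, 38 in the edgeR-normalized table and 1 to 24 with 1 library left out. The libraries that moved the last 3 counts over 1.5 times included males replicates 3, 4 and 5 and proestrus replicate 5 in each, with proestrus replicates 1 and 3 in the first, diestrus replicates 3 and 4 in the second, and diestrus replicate 4 and proestrus replicate 1 in the third.

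Groups share replicate numbers, but same-numbered libraries did not all deviate together (r of their deviations 0.012 to 0.59 over 8 pairs, median 0.15, 6 above 0.1, against a median of -0.042 and 5 of 32 above 0.1 in pairs of unlike number), and 6 of the 11 libraries correlated best with one of their own number. With a replicate block the counts were 517, 3, 47 and 18 in that order of comparisons. The block changed no call of Arc or Dusp1, with adjusted p for Arc of 0.504, 0.336, 0.275 and 0.754.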
